A study of Mus musculus with 12 samples.

Results

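The posterior end of the mouse HoxA cluster and its neighbor Evx1 were followed here through their chromatin contacts. The members are 5 genes, Hoxa9, Hoxa10, Hoxa11, Hoxa13 and Evx1, of the 12 genes that make up HoxA and Evx1. Their interactions are all those with an anchor whose midpoint lies in chr6:52222001-52330000 of mm10, a window of 108 kb. In ESC these were 2017 of 10237359 interactions in Hi-C, 221 of 1921126 in FGFR1 HiChIP and 138 of 882215 in CTCF HiChIP. In NCC they were 2092 of 10708066, 335 of 2388222 and 160 of 841945.

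The study compared mouse embryonic stem cells (ESC) of the line E14Tg2A, kept with Leukemia Inhibitory Factor, with neuronal committed cells (NCC) that were made from the same line by 1 uM retinoic acid in medium without that factor for 48 h. No genetic change separates the groups, and all come from a single cell line. Hi-C, which counts DNA ends ligated together after fixation, and HiChIP, which enriches such read pairs with an antibody to FGFR1 or to CTCF, were each run on 2 biological replicates per cell type, which the authors merged into 1 table. Each cell type and assay is therefore represented by 1 merged library without replicate error, and each p-value compares 2 libraries, not the conditions. Intervals are 95% intervals and cover counting error only. The tables of Hi-C (20745652 and 21228099 read pairs for ESC and NCC) were deeper than those of FGFR1 HiChIP (2662606 and 3203872) and of CTCF HiChIP (1218098 and 1056437), and all ratios of NCC over ESC were scaled to these totals.

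Hox genes encode homeodomain transcription factors that set position along the body axis, and they are arranged on the chromosome in the order in which they are used. Retinoic acid switches on the anterior end of the cluster first, while the posterior genes act in the lumbar to tail region and in limbs and are usually kept silent by Polycomb complexes in stem cells. CTCF is an architectural protein that can halt loop extrusion by cohesin, and its sites inside HoxA are known to separate anterior from posterior chromatin in differentiating cells. Nuclear FGFR1 (nFGFR1) is a form of the growth factor receptor that the study treats as a chromatin-associated regulator.

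Hoxa9 (chr6:52223100-52231089), a regulator of blood progenitors, lies first in the window, next to the anterior stretch. Hoxa10 (chr6:52231197-52240854) and Hoxa11 (chr6:52242106-52245810) act in the lumbar spine, the uterus and, for Hoxa11, the forearm. Hoxa13 (chr6:52257694-52260880), needed for digits and the genital tract, ends the HoxA series. These 4 genes are read from the minus strand. Evx1 (chr6:52313498-52318378), a relative of the fly gene even-skipped that is used in the primitive streak and in spinal interneurons, follows at a distance and is read from the plus strand. All positions are from GENCODE M21 on GRCm38, the same assembly as mm10, and at all 54 different window anchors a GATC restriction site lies at each end.

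The CTCF consensus has 12 letters and was searched on both strands by its usual core form. No exact match lies in the window, whereas 35.2% of 24365 windows of that length on the genome hold at least 1. With 1 mismatch allowed there are 14 matches, 11 on the plus and 3 on the minus strand, and 97.2% of the windows of the genome hold at least 1 such match. As many as 14 were found in 19.3% of the windows. A match is a description of letters and not a measured binding site. The 3 matches below are printed because they are the ones that lie inside an anchor of all 6 tables. Capitals mark letters that fit the consensus, and lower case the mismatch and 9 bases on each side, read from GRCm38.
Match in the first exon (5′ UTR) of a long Hoxa10 transcript, 5.26 kb from the Hoxa11 start site, chr6:52240532-52240561, minus strand: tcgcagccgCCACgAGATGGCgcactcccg
First match beyond Hoxa13, chr6:52269553-52269582, plus strand: aaggcccttCCtGCAGAGGGCtggtgccag
Second match beyond Hoxa13, chr6:52270693-52270722, plus strand: gatctttccCCACTAGATGtCttccaagtt
The anchor that holds both matches beyond Hoxa13 had 41 read-pair ends of CTCF HiChIP in ESC, on 3712 bp, and 48 in NCC, on 6157 bp. The anchor with the match inside Hoxa10 had 34 on 3710 bp in ESC and 21 on 2354 bp in NCC. These counts are not scaled to the totals, and no difference between the cell types is read from them.

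The posterior window had fewer Hi-C read pairs with the anterior stretch of the cluster in NCC than in ESC. Hi-C held 586 read pairs between the window and the anterior stretch (the HoxA genes up to Hoxa7, chr6:52150001-52222000) in ESC and 242 in NCC. Scaled to the totals this is a ratio of 0.404 (0.346 to 0.470, adjusted p = 3.24e-34 by the exact binomial test with Benjamini-Hochberg adjustment over 18 comparisons of region and assay). The anchors of the anterior stretch were not fewer in NCC, with 8 in ESC and 11 in NCC. Together they covered 50.7 kb in ESC and 55.7 kb in NCC, and their own read-pair ends went from 4359 to 4917. Within these pooled cells, fewer cells with a contact and a weaker contact in each cell cannot be told apart.

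Contacts among the posterior anchors themselves were also lower in NCC, with 786 Hi-C read pairs in ESC and 579 in NCC between different anchors of the window (ratio 0.720, 0.646 to 0.802, adjusted exact p = 1.55e-08). Read pairs of the whole window with the flanks were higher. The proximal flank, which lies before the cluster (chr6:51100001-52150000), held 386 and 541 read pairs (ratio 1.37, 1.20 to 1.56, adjusted exact p = 1.29e-05). Of these, 21 and 113 were at Hoxa9, whose anchor was called at 1377 bp in ESC and 3707 bp in NCC. Hoxa10 held 82 and 135 and Hoxa11 99 and 125, whereas Hoxa13 held 38 and 19 and Evx1 41 and 23. The distal flank, which lies beyond Evx1 (chr6:52330001-53300000), held 888 and 1064 (ratio 1.17, 1.07 to 1.28, adjusted exact p = 0.00239). Of these, 459 and 639 were at window anchors more than 5 kb from the start site of any member (ratio 1.36, 1.20 to 1.54). Among the members, Hoxa9 held 8 and 27, Hoxa10 43 and 52, Hoxa11 101 and 120 and Hoxa13 106 and 110, whereas Evx1 fell from 171 to 116. The distal rise of the window was thus mostly not at the genes. The distal difference was not seen once the coverage of the distal flank itself was divided out (ratio 1.03, adjusted exact p = 0.616), and that flank held 19906 read-pair ends in ESC and 23513 in NCC. It was also not past the test on the window anchors with the same ends in both cell types (ratio 1.17, adjusted exact p = 0.203).

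**Figure D1:**
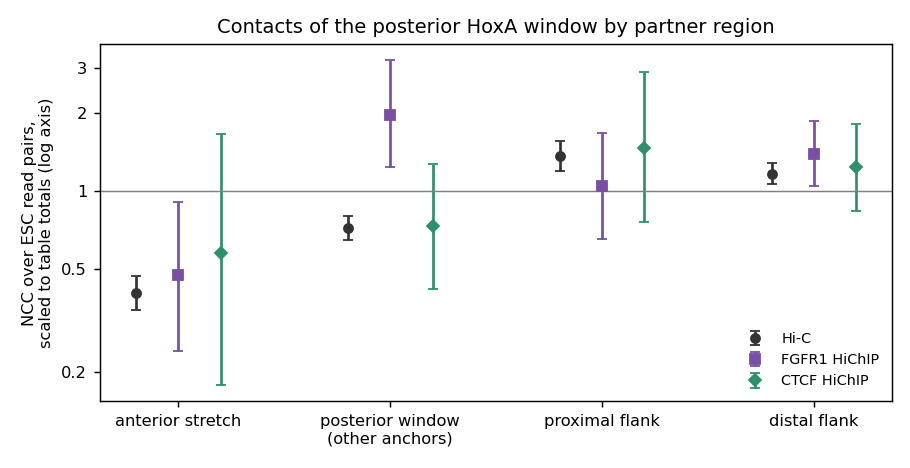
NCC over ESC read pairs of the posterior HoxA window with 4 partner regions, scaled to the table totals, on a log axis. Points are the ratios in Hi-C, FGFR1 HiChIP and CTCF HiChIP and bars are exact 95% intervals. The Hi-C points lie below 1 for the anterior stretch (0.404) and for the window itself (0.720) and above 1 for both flanks, and FGFR1 HiChIP stands apart at the window itself (1.97).

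These ratios have to be read against the rest of the genome, where many regions differ between these libraries. The same ratio was computed for every window of 108 kb with at least 50 read pairs. For a stretch as long as the anterior stretch, 26.2% of 15308 windows were at least 20% lower in NCC, and 4.44% were as low as HoxA. Inside the window, 28% of 17970 windows were past that limit and 20.6% as low. For the stretch of the proximal flank 18% of 18365 windows were at least 25% higher and 12.5% as high. For that of the distal flank the shares were 18.5% of 19194 and 24.4%. The ratio with the anterior stretch lay in the lower tail of all windows, and the other 3 Hi-C ratios lay closer to the middle.

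The lower contact lay in the cluster itself. In partner bins of 50 kb, the bin from 52150001 to 52200000 went from 320 read pairs in ESC to 95 in NCC (ratio 0.290) and the bin from 52200001 to 52250000, window pairs left out, from 266 to 147 (ratio 0.540). Before the cluster, 17 of 21 bins were higher in NCC, and beyond Evx1 16 of 19. None of these flank bins passed the exact binomial test with adjustment over the Hi-C bins.

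**Figure D2:**
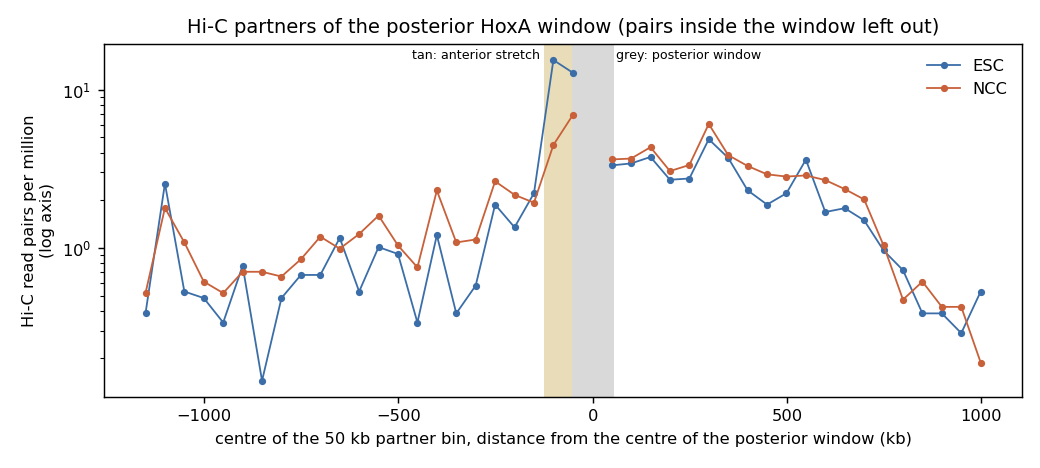
Hi-C read pairs scaled to the table total (log axis) between the posterior window and each partner bin of 50 kb, by distance from the center of the window in kb, for ESC and NCC. The 2 bins over the anterior stretch fell from 320 and 266 read pairs in ESC to 95 and 147 in NCC, whereas most bins on both flanks were slightly higher in NCC.

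Gene by gene, all 5 members gave a smaller share of their Hi-C read pairs to the anterior stretch in NCC. For all 5 the intervals of ESC and NCC did not overlap. How often this holds over the genome was not computed. The 26.2% of windows that were at least 20% lower is a share by count ratio, which is another measure. Hoxa9 gave 55 of 180 read pairs in ESC (30.6%, 24.3 to 37.6) and 70 of 401 in NCC (17.5%, 14.1 to 21.5). Hoxa10 gave 136 of 595 (22.9%) and 66 of 565 (11.7%). Hoxa11 gave 158 of 915 (17.3%) and 45 of 757 (5.94%). Hoxa13 gave 48 of 426 (11.3%) and 7 of 286 (2.45%), and Evx1 gave 60 of 714 (8.403%) and 9 of 331 (2.72%). In ESC the share was lower for each gene farther from the anterior stretch. In NCC the order was the same except that Hoxa13 and Evx1, whose intervals overlap, changed places. As counts, 4 of the 5 genes were lower with the anterior stretch. The exception was Hoxa9, whose 55 and 70 read pairs give a ratio of 1.24 (0.861 to 1.80) while its read pairs with the proximal flank went from 21 to 113 (ratio 5.26, 3.28 to 8.82).

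Hoxa10 and Hoxa11 have anchors with the same ends in both Hi-C libraries, 6983 bp and 10352 bp in all, so that their read pairs can be set side by side directly. Their ratios with the anterior stretch were 0.474 (0.348 to 0.641) and 0.278 (0.195 to 0.390). Anchors of the other genes were called with different lengths, 1377 bp (ESC) and 3707 bp (NCC) for Hoxa9, 8079 and 6237 bp for Hoxa13 and 8319 and 5168 bp for Evx1. The part of that length in the counts of these genes was not tested. The interaction anchor strength, the number of read-pair ends, was 190 and 447 at Hoxa9, 442 and 304 at Hoxa13 and 788 and 353 at Evx1. Per kb of anchor it was 138 and 121 at Hoxa9, 54.7 and 48.7 at Hoxa13 and 94.7 and 68.3 at Evx1. At Hoxa10 it was 646 and 634 (ratio 0.959, 0.858 to 1.07), and at Hoxa11 1060 and 881 (ratio 0.812, 0.742 to 0.889).

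The shares with the flanks differed by position. Toward the proximal flank Hoxa9 went from 11.7% of its read pairs in ESC to 28.2% in NCC, Hoxa10 from 13.8% to 23.9% and Hoxa11 from 10.8% to 16.5%, and for these 3 genes the intervals did not overlap. Hoxa13 (8.92% and 6.64%) and Evx1 (5.74% and 6.95%) had overlapping intervals there. Toward the distal flank, the share went from 24.9% to 38.5% at Hoxa13, from 23.9% to 35.0% at Evx1 and from 11.04% to 15.9% at Hoxa11, again without overlap. Hoxa9 (4.44% and 6.73%) and Hoxa10 (7.23% and 9.20%) had overlapping intervals. How often such intervals lie apart over the genome was not computed. By count ratio, 18% of windows of the genome were at least 25% higher with the stretch of the proximal flank. For the stretch of the distal flank it was 18.5%. A higher share is not a higher count, and counts with the flanks did not go one way for all genes. Toward the proximal flank Hoxa13 had 38 read pairs in ESC and 19 in NCC (ratio 0.489, 0.266 to 0.869) and Evx1 had 41 and 23 (ratio 0.548, 0.314 to 0.935). Toward the distal flank Evx1 had 171 distal read pairs in ESC and 116 in NCC (ratio 0.663, 0.519 to 0.844) and Hoxa13 106 and 110 (ratio 1.01, 0.770 to 1.34).

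**Figure D3:**
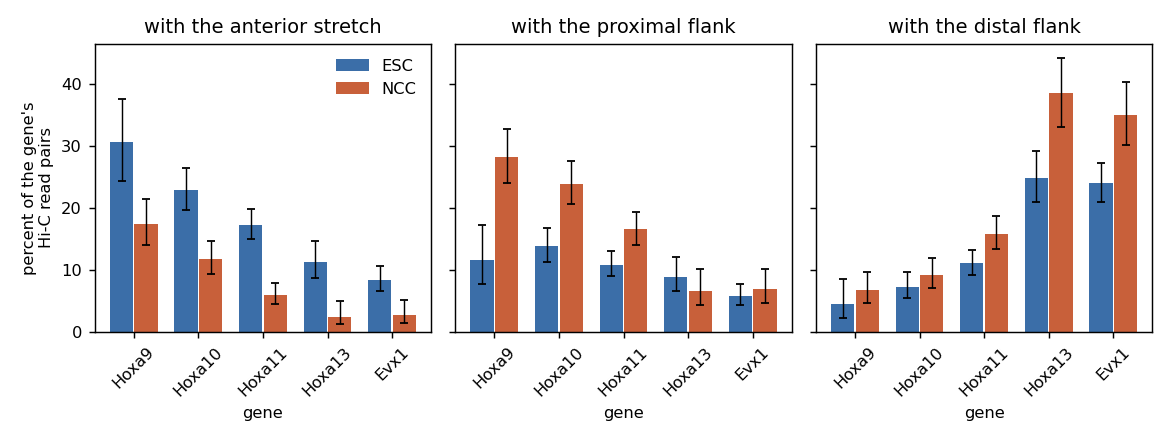
Percent of each gene's Hi-C read pairs with the anterior stretch, the proximal flank and the distal flank in ESC and NCC, and bars are Wilson 95% intervals. The share with the anterior stretch is lower in NCC for all 5 genes, from 17.5% at Hoxa9 to 2.45% at Hoxa13, and Hoxa13 and Evx1 hold 38.5% and 35.0% with the distal flank in NCC.

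The side on which a gene makes its contacts was measured as the distal share, the distal read pairs over all flank and anterior read pairs. For the window it rose from 47.7% (45.5 to 50.01) in ESC to 57.6% (55.3 to 59.8) in NCC (Fisher's exact test, adjusted p = 6.23e-09 over 3 assays). Hoxa13 rose from 55.2% to 80.9% (adjusted p = 9.90e-06 over 9 gene and assay comparisons, Fisher's exact test). Evx1 rose from 62.9% to 78.4% (adjusted exact p = 0.00302) and Hoxa11 from 28.2% to 41.4% (adjusted p = 0.00212). Hoxa9 (9.52% and 12.9%, adjusted exact p = 0.878) and Hoxa10 (16.5% and 20.6%, adjusted p = 0.577) did not pass. With the anterior stretch left out, the window's distal share was 69.7% in ESC and 66.3% in NCC (adjusted exact p = 0.162), and Hoxa11 (50.5% and 49.0%), Hoxa13 (73.6% and 85.3%) and Evx1 (80.7% and 83.5%) did not pass.

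Partners inside the anterior stretch were compared over blocks, which are unions of overlapping ESC and NCC anchors. Blocks were introduced after the anchors were seen, since a merged anchor can be nearest to one gene in ESC and to its neighbor in NCC. Over the 13 posterior and 8 anterior blocks with anchors in both cell types, 79 of 104 block pairs were lower in NCC, 12 were higher and 13 held no read pairs. By the exact binomial test with adjustment over 182 block pairs, 9 of the 104 were lower (8.65%, beside 8.26% of the 36 kb bin pairs of the genome) and 0 higher. This share is near that of the genome, and a share of block pairs over the genome was not computed. With each anchor given to the nearest start site instead, 10 of 35 pairs of a member and an anterior gene were lower and 3 higher. One of these 3 is Hoxa9 with Hoxa7, from 9 to 35 read pairs (ratio 3.80, 1.79 to 8.99). With the block that spans start sites of Hoxa3, Hoxa5, Hoxa6 and Hoxa7, the block of Hoxa10 went from 58 to 32 read pairs (ratio 0.539, adjusted exact p = 0.0493). Hoxa11 went from 50 to 11 with that block (ratio 0.215, adjusted exact p = 3.76e-05) and Hoxa13 from 16 to 3 (ratio 0.183, adjusted p = 0.0328).

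No read pair was found in NCC at 4 of these 9 pairs, which at this depth does not show that contact was absent. Hoxa10 had 9 with Hoxa4 in ESC and 0 in NCC, which is at least 3.07-fold lower when 3 read pairs are taken as the limit that 0 allows (adjusted exact p = 0.0270). The Hoxa3 to Hoxa7 block had 10 in ESC and 0 in NCC with a block between Hoxa13 and Evx1 (at least 3.41-fold lower, adjusted exact p = 0.0163). The anchor of that second block was called at 2999 bp in ESC and 1261 bp in NCC. All its Hi-C ends went from 373 to 112, and the part of this in the fold was not tested. Hoxa9 showed the opposite order at its nearest neighbors, with 18 read pairs in ESC and 27 in NCC with the Hoxa3 to Hoxa7 block and 9 and 21 with the block next to it, neither of which passed. In the Hoxa9 block the anchor is longer in NCC, as given above.

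**Figure D4:**
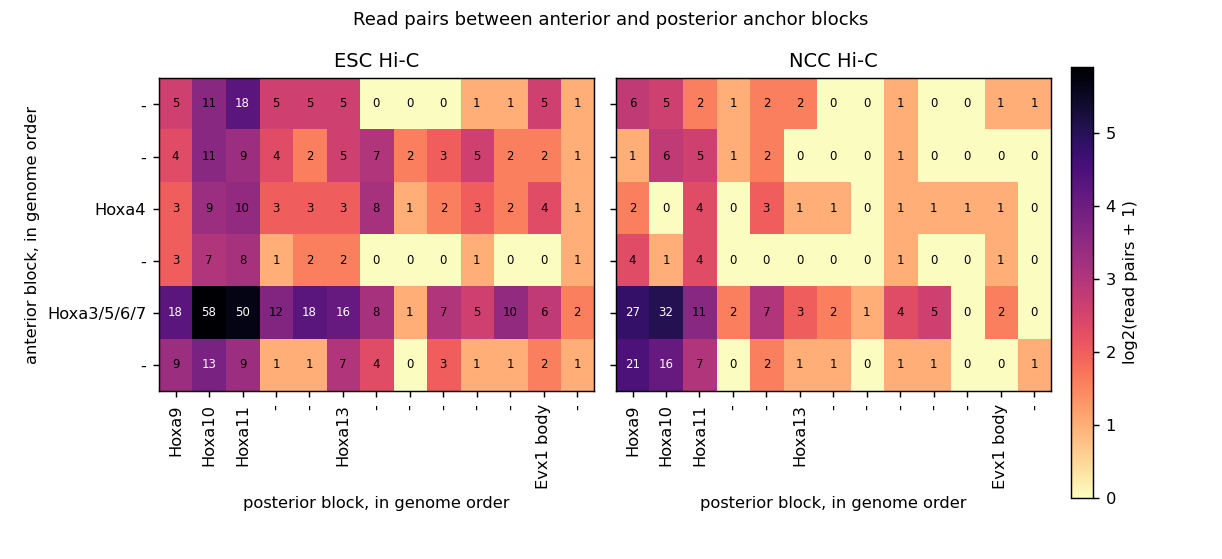
Hi-C read pairs between the 6 anterior blocks nearest to the window (rows) and each posterior block (columns) in genome order, in ESC and NCC, printed in each cell and colored by log2(read pairs + 1). A dash marks a block without a start site of these genes. Hoxa10 and Hoxa11 hold 58 and 50 read pairs with the Hoxa3 to Hoxa7 block in ESC and 32 and 11 in NCC, and most cells farther to the right are near 0 in NCC.

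Among the posterior blocks, 5 of 78 pairs were lower in NCC (6.41%, below the 8.26% of bin pairs of the genome) and 1 higher by the same test. Hoxa10 went from 12 read pairs to 0 with the block over the Evx1 body (at least 4.09-fold lower, adjusted exact p = 0.00599), and Hoxa13 from 11 to 1 (ratio 0.0888, adjusted p = 0.0403). The single pair that rose joins 2 neighboring blocks in the stretch between Hoxa13 and Evx1, from 9 to 36 read pairs (ratio 3.91, adjusted exact p = 0.00388).

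In the test on 36 kb bin pairs over the whole genome, 9 of 68 bin pairs with an end in the window were lower in NCC (13.2%, beside 8.26% of 240165 bin pairs on the genome) and 3 were higher (4.41%, beside 8.28%). All 6 bin pairs of the anterior stretch with the window are among the 9. The bin of Hoxa9, Hoxa10 and Hoxa11 went from 238 to 143 read pairs with the bin of Hoxa4 to Hoxa7 (ratio 0.587, adjusted p = 1.26e-05, exact binomial test with Benjamini-Hochberg adjustment). The bin of Evx1 went from 53 to 13 with the Hoxa4 to Hoxa7 bin (ratio 0.240, adjusted exact p = 1.31e-05) and from 105 to 28 with the bin of Hoxa9 to Hoxa11 (ratio 0.261, adjusted p = 6.24e-10). Anchors of the Evx1 bin covered 20.5 kb in ESC and 14.8 kb in NCC, and their part in these ratios was not tested. The methods' t-test on 10 kb bin pairs with Bonferroni adjustment, whose values are 1 kb bins of the pooled libraries and not replicates, called 54 of 75 bin pairs of the window and the anterior stretch lower in NCC and 3 higher. Around the cluster it called 16.2% of 11196 bin pairs lower and 26.1% higher.

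The 3 bin pairs that rose reach into Skap2, Hibadh and Jazf1. The bin of Hoxa9 to Hoxa11 rose from 5 to 30 read pairs with a bin in Skap2, an adaptor of Src kinases (ratio 5.86, adjusted exact p = 0.000449), and the bin that holds the Hoxa13 start site from 13 to 52 with a bin in Hibadh, an enzyme of valine breakdown (ratio 3.91, adjusted p = 3.74e-05), and from 7 to 23 with a bin in the zinc finger gene Jazf1 (ratio 3.21, adjusted p = 0.0359). Anchors of the Skap2 bin covered 16.7 kb in ESC and 34.2 kb in NCC and those of the Jazf1 bin 6.02 and 23.8 kb, and the part of this in both ratios was not tested. Those of the Hibadh bin covered 18.7 and 21.2 kb, with 792 and 1020 read-pair ends. On the window side, the bin with the Hoxa13 start site (chr6:52258001-52294000) covered 20.9 and 24.6 kb, with 1319 and 1670 ends. With the whole distal flank, Hoxa13 itself held 106 and 110 read pairs and the block beyond it 117 and 141. A block farther on (chr6:52282985-52285539) held 17 and 64, on anchors of 1361 and 2555 bp. Which anchors of that bin held the rises with Hibadh and Jazf1 was not tested.

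Over whole genes, 6 of 9 protein-coding genes of the flanks had at least 20 Hi-C read pairs with the window, and all 6 were higher in NCC. Skap2 had 61 read pairs in ESC and 120 in NCC (ratio 1.92, 1.40 to 2.66), while its own read-pair ends were 1.30 times as many. Hibadh had 171 and 229 (ratio 1.31, 1.07 to 1.60), with its own ends at 0.992 times. The intervals of the others include 1. Tax1bp1, an autophagy adaptor, had 44 and 65, Jazf1 245 and 290, the sorting nexin Snx10 18 and 31, and the transcription factor Creb5 36 and 39. Their ratios were 1.44, 1.16, 1.68 and 1.06, and their own ends were 1.14, 1.23, 0.947 and 1.18 times as many. Jazf1 and Creb5 were thus not higher relative to their own ends. A share over genes of the genome was not computed.

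In FGFR1 HiChIP the posterior window showed the same lower contact with the anterior stretch, from 28 read pairs in ESC to 16 in NCC (ratio 0.475, 0.240 to 0.909, adjusted exact p = 0.0441), but more contact within itself. These read pairs are below the 50 asked of a window of the genome. Of 3004 windows that had as many, 45.1% were at least 20% lower and 10.9% as low, so the ratio does not set HoxA apart. The anterior anchors themselves had 336 FGFR1 ends in ESC and 574 in NCC. Read pairs between different anchors of the window went from 27 to 64 (ratio 1.97, 1.24 to 3.21, adjusted exact p = 0.0108), whereas Hi-C had the ratio 0.720. The FGFR1 ratio was 2.74 times the Hi-C ratio (exact conditional test, adjusted p = 8.75e-05 over 8 comparisons). On the genome, 32.3% of 11423 windows were at least 25% higher within themselves in FGFR1 HiChIP, and 12.4% as high as this one. Read pairs with the distal flank went from 79 to 133 (ratio 1.40, 1.05 to 1.87, adjusted exact p = 0.0425), with 29.5% of 15850 windows at least 25% higher. Anchors of the window in FGFR1 HiChIP covered 26.6 kb in ESC and 39.1 kb in NCC, and on the anchors with the same ends in both cell types no FGFR1 call was kept. The ratio there was 1.27 within the window (17 and 26 read pairs, adjusted exact p = 0.608), 0.453 with the anterior stretch (11 and 6, adjusted p = 0.369) and 1.23 with the distal flank (21 and 31, adjusted p = 0.608). Over read pairs at least 20 kb apart the ratio within the window was 1.247 (adjusted exact p = 0.734).

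Among the members, FGFR1 HiChIP depended on which anchors were called. Of 3 bin pairs of 36 kb that could be tested, 1 was higher in NCC, beside 6.88% of 23555 on the genome: the bin of Evx1 with itself, from 4 to 22 read pairs (ratio 4.57, adjusted p = 0.0185, exact binomial test with adjustment over the genome), where Hi-C went from 141 to 58. Anchors of that bin in FGFR1 HiChIP covered 9.82 kb in ESC and 16.4 kb in NCC, and with bins of 54 kb 0 of 5 were higher. No bin pair of the window could be tested with bins of 12 kb. No FGFR1 anchor was called within 5 kb of the Evx1 start site in ESC, and in NCC the gene had 50 read-pair ends. Of these, 38 lay on an anchor before the gene (chr6:52308458-52309971) and 12 on an anchor in its body. An ESC anchor outside that reach, chr6:52305542-52307549, held 47 ends, and a longer NCC anchor over it, chr6:52302270-52307549, held 93. The 0 in ESC therefore depends on the 5 kb rule. Hoxa10 had 24 ends in ESC on 1895 bp of anchor and 85 in NCC on 5909 bp, which is 12.7 and 14.4 ends per kb of anchor. Relative to Hi-C at the same gene, FGFR1 ends at Hoxa10 were 0.289 (0.184 to 0.435) in ESC and 0.888 (0.700 to 1.12) in NCC, and this ratio differed between the cell types (exact conditional test, adjusted p = 3.50e-06 over 6 comparisons). The size of this difference depends on anchor assignment, since an ESC anchor that overlaps the NCC anchor of Hoxa10 has its midpoint nearer to Hoxa9. Over the Hoxa10 block, the same 6983 bp in both cell types although the FGFR1 anchors inside it differ, FGFR1 ends were 38 and 85 and the ratio to Hi-C 0.458 in ESC and 0.888 in NCC, which is 1.94 times as high in NCC (exact conditional test, adjusted p = 0.00529 over 6 block comparisons). Hoxa13 had 40 and 26 ends, and its ratio to Hi-C was 0.705 and 0.567. By the 5 kb rule Hoxa11 had no FGFR1 anchor in ESC and 19 ends in NCC, and Hoxa9 had 14 ends in ESC and no anchor in NCC. Over blocks, Hoxa11 had 38 and 47 ends, 1.26 times as high in NCC relative to Hi-C (adjusted exact p = 0.474), and Hoxa9 had 0 in both.

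Among the 5 genes, CTCF HiChIP was above the Hi-C level at Hoxa13 in both cell types. Its ends there were 45 in ESC and 35 in NCC, which is 1.73 times (1.2465 to 2.36, adjusted p = 0.00164) and 2.31 times (1.58 to 3.29, adjusted p = 4.02e-05) the Hi-C level of the gene by Fisher's exact test over 20 combinations of gene, antibody and cell type. Blocks without a start site were not tested. The block beyond Hoxa13 (chr6:52267615-52275545) had 41 and 48 CTCF ends beside 469 and 508 of Hi-C. The block chr6:52302270-52307549 had 17 and 49 beside 436 and 411. These block counts are not scaled to the totals. Unscaled, Hoxa13 had 45 and 35 beside 442 and 304, so the block beyond it came only somewhat lower. The block chr6:52302270-52307549 was lower than Hoxa13 in ESC but about as high in NCC. Scaled to the totals, the 10 kb bin with that block had 6.98 CTCF ends beside 19.5 of Hi-C in ESC. In NCC it had 23.2 beside 12.3. In NCC a level above Hi-C was thus not limited to Hoxa13. Hoxa10 was near the Hi-C level, with 44 ends and a ratio of 1.16 (0.835 to 1.58) in ESC and 26 ends and 0.824 (0.534 to 1.22) in NCC. Hoxa11 had 34 ends and a ratio of 0.546 in ESC, and in NCC its anchor was called shorter, with a midpoint more than 5 kb from the start site. Over the Hoxa11 block, CTCF ends were 34 and 21. Hoxa9 had no CTCF anchor in either cell type, and Evx1 had none in ESC and 7 ends in NCC, a ratio of 0.398. With anchors up to 10 kb from the start site the NCC ratio was 1.49 at Hoxa10 and 1.14 at Evx1. In all, 7 of the 20 combinations had no HiChIP anchor, which says that none was called and not that the protein was absent.

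**Figure D5:**
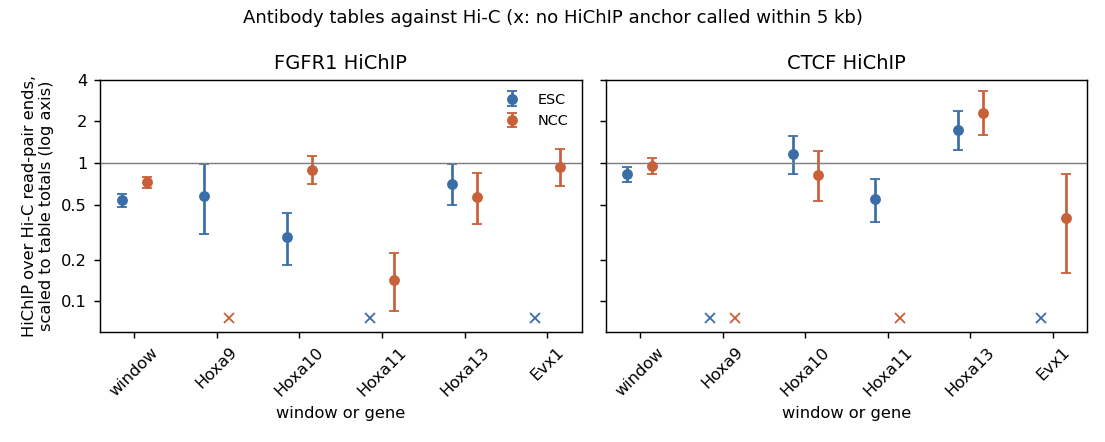
Read-pair ends in FGFR1 HiChIP and CTCF HiChIP over those in Hi-C, scaled to the table totals, on a log axis, for the window and the 5 genes in ESC and NCC. Bars are exact 95% intervals and a cross marks a gene without a HiChIP anchor within 5 kb. CTCF at Hoxa13 lies above 1 in both cell types (1.73 and 2.31), and FGFR1 at Hoxa10 lies at 0.289 in ESC and 0.888 in NCC.

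None of the 4 region totals of the window in cis passed the test in CTCF HiChIP. The anterior stretch held 12 read pairs in ESC and 6 in NCC (ratio 0.577, 0.178 to 1.66), the window itself 36 and 23 (ratio 0.737, 0.417 to 1.28), the proximal flank 18 and 23 (ratio 1.47, 0.761 to 2.90) and the distal flank 54 and 58 (ratio 1.24, 0.840 to 1.83). Their adjusted exact p lay between 0.351 and 0.390, and the intervals for the anterior stretch and the window itself include the Hi-C ratios. By gene, Hoxa10 went from 13 read pairs with the other anchors of the window in ESC to 1 in NCC (ratio 0.0887, 0.00209 to 0.591), and Hoxa13 had 15 in both (ratio 1.15, 0.525 to 2.53). The anchors of Hoxa10 had the same ends in both cell types, but most of its partner anchors did not. Of the 11 CTCF anchors of the window, 3 had the same ends, and 8 of the ESC read pairs of Hoxa10 were with Hoxa11. Hoxa11 had 11 in ESC and 0 in NCC, where its anchor was not counted for the gene, as given above. Read pairs with other chromosomes rose from 13 to 26 (ratio 2.31, adjusted exact p = 0.0387), a call that did not hold on the anchors with the same ends in both cell types, where the ratio was 0.577 (6 and 3 read pairs). The 7 bins of 10 kb that hold a consensus match had 66.9% of the window's CTCF ends in ESC and 61.0% in NCC, beside 58.4% and 59.8% of its Hi-C ends.

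Contacts with the other Hox clusters were counted as read pairs between the window and HoxB, HoxC or HoxD with 10 kb on each side. ESC Hi-C held 2, 3 and 2 read pairs where 0.113, 0.0557 and 0.0231 were expected from the inter-chromosomal totals. The exact Poisson interval was 0.242 to 7.22 for a count of 2 and 0.619 to 8.77 for the count of 3. NCC Hi-C held 1, 0 and 0, and both HiChIP assays held 0 in both cell types. These counts cannot show a difference between ESC and NCC.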

How the data were processed

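Hi-C, FGFR1 HiChIP and CTCF HiChIP were analysed from 12 samples in 6 groups, 2 replicates each. Per the study's methods, the authors de-duplicated read pairs and kept valid pairs with HiC-Pro, assigned them to anchors called in each sample with hichipper, both at default settings, and merged the replicates. They used no q filter for the main figures, and whether the deposited tables were filtered is not given in the sources used here. Versions are not given in the sources used here, and the submitters' processing notes name mm10. The deposited score of each interaction is a count of read pairs, used as deposited. Because anchors were called separately in each library, their covered length differs and is given beside the ratios.

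An anchor was placed by its midpoint, and a gene took the anchors with a midpoint within 5 kb of its start site. Counts on chromosomes 1 to 19 and X were compared between pooled libraries with two-sided exact binomial tests against the table totals, at an adjusted p of 0.05 (Benjamini-Hochberg). A read pair inside an anchor gives both its ends to that anchor. Shares have Wilson 95% intervals and were compared with Fisher's exact test. Bin pairs of 36 kb, at most 1100 kb apart and with at least 20 read pairs, were tested over the whole genome, and the code was tested on simulated data. The exact conditional tests, the blocks (also for HiChIP over Hi-C) and the anchors with the same ends were chosen after seeing the data. The members and lists were chosen with earlier results of these data known. Named genes were the 5 members, the anterior genes of the cluster and every protein-coding flank gene with at least 20 Hi-C read pairs. Results on 1 anterior gene are not reported here. Alternatives covered anchor placement, score, scaling, distance, bin size and the anchor with most ends. Python 3.11.15, numpy 2.4.6, pandas 2.3.3, scipy 1.17.1 and matplotlib 3.10.9 were used.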

Additional observations from a re-analysis of the deposited data

Results flagged for a closer look

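Relative to Hi-C, the read-pair ends of FGFR1 HiChIP at the posterior window were 0.538 in ESC and 0.726 in NCC, so that the ratio was 1.35 times as high in NCC (exact conditional test, adjusted p = 9.05e-05 over 6 comparisons). At Hoxa10 the ratio was 3.07 times as high in NCC, with HiChIP anchors covering 1895 and 5909 bp, and over the Hoxa10 block, the same stretch in both cell types, it was 1.94 times as high (adjusted exact p = 0.00529). Within the window, the FGFR1 HiChIP ratio of NCC over ESC was 2.74 times that of Hi-C. On the anchors with the same ends in both cell types the FGFR1 ratio itself was 1.27 (17 and 26 read pairs, adjusted exact p = 0.608), not 1.97. These 3 values stand here because the difference between the cell types or assays itself passed a test. FGFR1 anchors of the window covered 26.6 kb in ESC and 39.1 kb in NCC, and the part of this in the ratio of 1.35 was not tested.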

How the results depend on the processing

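No paired analysis was possible because the replicates of each group were merged into 1 table, and leaving out a replicate could not be run for the same reason. The lower Hi-C contact with the anterior stretch kept its direction and call under every alternative run on it. For the main results, 157 values under an alternative kept direction and call, 21 kept the direction but not the call, 1 passed in addition, 4 turned and 11 counts or shares moved, and the cause was not tested. In CTCF HiChIP with other chromosomes the ratio was 1.999 with anchors placed by overlap, 0 with a score of at least 2, 2.04 scaled to chromosome 6, 1.96 scaled to the window's own read pairs, 1.77 without the anchor with most ends and 0.577 on anchors with the same ends. In FGFR1 HiChIP the distal flank was 1.247 with a score of at least 2, 1.38 scaled to chromosome 6, 1.14 scaled to the window's own read pairs, 1.35 without the anchor with most ends and 1.23 on anchors with the same ends. The FGFR1 ratio within the window was 1.61 scaled to its own read pairs, 1.55 after division by coverage, 1.247 at 20 kb or more and 1.27 on anchors with the same ends, and with the anterior stretch 0.475 without the anchor with most ends and 0.453 on anchors with the same ends. In Hi-C the distal flank was 1.03 after division by coverage and 1.17 on anchors with the same ends, other chromosomes 1.10 on those anchors, and the rest of chromosome 6 0.428 with a score of at least 2. With the anterior stretch left out, the distal share of NCC minus ESC was -3.41 points for the window in Hi-C, 5.84 in FGFR1 HiChIP, -1.52 at Hoxa11, 11.7 at Hoxa13 and 2.79 at Evx1. Higher Hi-C bin pairs were 5 when scaled by distance, lower ones 16 in bins of 12 kb, and higher FGFR1 bin pairs 0 in bins of 12 kb, where no bin pair of the window could be tested, and 0 of 5 in bins of 54 kb. Over blocks, FGFR1 HiChIP relative to Hi-C at Hoxa10 was 1.94 times as high in NCC, in place of 3.07. The methods' t-test called 5 bin pairs higher with Benjamini-Hochberg adjustment and 5 with none. At 1.5 fold, 14.6% of windows were past the fold for the stretch of the anterior stretch, 9.16% for that of the proximal flank, 10.4% for that of the distal flank and 17.0% within the window. CTCF matches were 14 with 1 mismatch allowed. With anchors within 10 kb, the NCC ratio of CTCF HiChIP over Hi-C was 1.49 at Hoxa10 and 1.14 at Evx1. In CTCF HiChIP the proximal flank has no ratio at a score of at least 2, since ESC held 0 such read pairs. Depth limits CTCF HiChIP most, with 0 bin pairs of the window that could be tested.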
